A study of Mus musculus with 6 samples.

Results

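Transcripts of the growth and survival signalling that runs from PI3K to mTOR were examined in METTL3-RIP-seq of mouse natural killer (NK) cells. They were Pik3ca, Pik3cg, Mtor, Irs2 and Cflar, chosen by gene symbol as 5 of the 2652 genes in the deposited gene table. METTL3-RIP-seq sequences the RNA that an antibody against METTL3, the catalytic subunit of the m6A methyltransferase, pulls out of a cell lysate, and sets it beside input RNA taken from the lysate without antibody. There were 3 METTL3-RIP libraries and 3 input libraries, made from spleen NK cells of C57BL/6 mice, which the methods call wild-type. According to the study's methods, these cells had been expanded in vivo by hydrodynamic injection of an IL-15 plasmid (pLIVE-IL-15), collected a month later and sorted, and both groups share that treatment, so none of the libraries stands for resting NK cells. The mice were young adults by the general statement of the methods. Whether the replicates came from separate or pooled animals is not given in the sources used here, so the p-values measure only the spread between these libraries, which may be technical. No precipitation with a non-specific antibody was analysed here, and RNA that sticks to antibody or beads was therefore not separated from RNA bound by METTL3.

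PI3K phosphorylates a membrane lipid after a cytokine or growth factor receptor is engaged, and the lipid recruits AKT, which relieves the TSC brake on mTOR, the kinase that drives protein synthesis and cell growth. In NK cells, IL-15 works through its receptor chains, JAK kinases and STAT5, and through PI3K and mTOR, to sustain proliferation, metabolism and survival. METTL3 acts together with METTL14 and places m6A mostly on adenosines within the DRACH sequence (D is A, G or T, R is A or G, H is A, C or T, in DNA letters), most often near stop codons and in long internal exons, and m6A can alter the stability and translation of an mRNA.

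Pik3ca encodes p110α, a class I catalytic subunit coupled to receptor tyrosine kinases and adaptors. Pik3cg encodes p110γ, the class I catalytic subunit coupled to G protein-coupled receptors and abundant in leukocytes. Irs2 encodes an adaptor that joins insulin and cytokine receptors to PI3K. Mtor encodes the kinase of both mTOR complexes, and Cflar encodes c-FLIP, which restrains caspase-8 at death receptors. In GRCm38 with the GENCODE M21 annotation, Pik3ca lies at chr3:32397671-32468486 on the plus strand, Pik3cg at chr12:32173473-32208659 on the minus strand, Mtor at chr4:148448611-148557683 on the plus strand, Irs2 at chr8:10984681-11008458 on the minus strand and Cflar at chr1:58711508-58758884 on the plus strand.

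One stretch of coding sequence is shown for each transcript, because GGACT is the form of DRACH that METTL3 is best known to use, and each transcript held it. The stretch is the 29-base window around the GGACT nearest the stop codon that lay within one exon and within the coding sequence of the representative transcript. GGACT stands in capitals, and all sequences are read 5′ to 3′ on the gene's own strand from GRCm38.
Pik3ca, chr3:32459880-32459908, plus strand, exon 17 of 20: tctatccattggGGACTgtgtgggtctca
Pik3cg, chr12:32176632-32176660, minus strand, exon 11 of 11: gagacaaaggatGGACTgtgcagtttaac
Mtor, chr4:148545588-148545616, plus strand, exon 48 of 58: tgccctcatccgGGACTacagagagaaga
Irs2, chr8:11005496-11005524, minus strand, exon 1 of 2: ctatatgaacctGGACTtcagttctccca
Cflar, chr1:58752679-58752707, plus strand, exon 9 of 10: aataaaaaatgtGGACTctaagcccctgc
These motifs ended 66 bases before the end of the coding sequence in Pik3cg, 290 in Cflar, 677 in Pik3ca, 893 in Mtor and 1043 in Irs2. In Pik3ca, Mtor and Irs2, a GGACT past the coding sequence, and so not shown, lay nearer the stop codon. It began at transcript base 3274 in Pik3ca, with the coding sequence ending at base 3262. The same bases were 7804 and 7741 in Mtor, and 4568 and 3994 in Irs2. A motif match is a description of the sequence, and methylation at these bases was not measured in the libraries used here.

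Library totals, recovered from the steps in the values, were 9401509 to 11809744 reads for METTL3-RIP and 14710607 to 15992386 for input. The table values are reads scaled to transcript length and library size (reads per kilobase per 1e+06 reads, RPKM), so levels of different genes can be compared per length. The table lists only genes that the authors had called enriched in METTL3-RIP, so a higher value in METTL3-RIP is a condition of being listed and gives no independent evidence of direction. The median listed gene had 2.74 to 3.20 RPKM in the METTL3-RIP libraries and 0.164 to 0.202 RPKM in input. None of 49 markers of NK cells and of other splenic cell types was listed, including 0 of 12 NK cell markers, so the cell type label could not be checked from these values. Each level is that of bulk RNA, in which fewer cells of a type and less RNA per cell cannot be told apart.

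All 5 transcripts were higher in METTL3-RIP, with every METTL3-RIP value above every input value, and the adjusted p was under 0.05 for 5 of 5 (limma on log2(RPKM + 1), 3 against 3 libraries, Benjamini-Hochberg over 2652 genes). The background was 99.9% of listed genes called higher and 99.8% with groups that did not overlap, so neither count set these transcripts apart from the table. The adjusted p-values given below for single genes are descriptive, since the genes were listed for this rise, and they are no independent evidence of enrichment. With a replicate block the calls were 5 of 5 against 99.7% of the table, and with voom on recovered reads 5 of 5 against 100%. These calls are relative to library totals. With each library centred on its median, 39.4% of listed genes were called higher and 42.2% lower, and Pik3cg, Mtor and Cflar were called higher. That centring was done on the log2(RPKM + 1) scale, which compresses low levels. With voom, Pik3cg at 3.30 and Cflar at 3.26 lay below the table's median of 3.89, and Mtor at 4.66 lay above it. With quantile normalization 6.41% were called higher and 5.73% lower, with Cflar lower and the other 4 not called. What differed among them was how large the ratio was and how evenly the libraries carried it. Mtor had the highest ratio of mean levels, 24.7, followed by Irs2 at 16.2, whereas Pik3ca, Pik3cg and Cflar had ratios between 9.57 and 10.2.

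Pik3ca was measured at 3.43, 3.93 and 2.92 RPKM in METTL3-RIP replicates 1, 2 and 3, and at 0.332, 0.358 and 0.322 RPKM in input. The input values lay within a narrow range, and the largest METTL3-RIP value was in replicate 2. The means were 3.42 ± 0.505 and 0.337 ± 0.0186 RPKM (SD, n = 3), a difference of 1.72 on the log2(RPKM + 1) scale (SE 0.10, limma adjusted p = 8e-07). That difference equalled the median of the 2652 listed genes, 1.72. Behind these values stood 293 to 343 reads in METTL3-RIP and 43 to 52 reads in input.

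Pik3cg was measured at 5.83, 5.18 and 4.67 RPKM in METTL3-RIP and at 0.619, 0.608 and 0.361 RPKM in input. Input replicate 3 was well below the other two, which were nearly equal. The means were 5.23 ± 0.583 and 0.529 ± 0.146 RPKM (SD, n = 3), and the difference was 2.03 on the log2(RPKM + 1) scale (SE 0.11, limma adjusted p = 5.4e-07). The ratio of means was 9.87, lower than for most listed genes, although the log2(RPKM + 1) difference was above the table's median. The read counts are uncertain, since the values were not whole multiples of 1 read at the annotated length of 8426 nt and gave whole reads at 3393 nt or a multiple of it, the smallest being 169 to 187 reads in METTL3-RIP and 18 to 33 in input.

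Irs2 was measured at 3.43, 4.54 and 2.87 RPKM in METTL3-RIP and at 0.228, 0.356 and 0.0860 RPKM in input. Replicate 2 was highest and replicate 3 lowest in both groups, and Irs2 had the widest relative spread of the 5 transcripts in each. The means were 3.61 ± 0.852 and 0.224 ± 0.135 RPKM (SD, n = 3), a coefficient of variation of 23.6% in METTL3-RIP and 60.4% in input against table medians of 15.5% and 33.3%. The difference was 1.90 on the log2(RPKM + 1) scale (SE 0.15, limma adjusted p = 3.8e-06). Input replicate 3 rested on 8 reads, with an exact Poisson 95% interval of 3.45 to 15.8 that covers counting error only. A gene on the opposite strand, 9530052E02Rik, overlapped 2.56% of the Irs2 exon bases. The library kit keeps strand, but whether the counting used it is not given in the sources used here.

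Mtor was measured at 4.83, 4.64 and 4.13 RPKM in METTL3-RIP and at 0.221, 0.223 and 0.108 RPKM in input. The METTL3-RIP values were close together, and input replicate 3 was again the low library. The means were 4.53 ± 0.362 and 0.184 ± 0.0659 RPKM (SD, n = 3), and the difference of 2.22 on the log2(RPKM + 1) scale (SE 0.09, limma adjusted p = 1.6e-07) was the largest of the 5. METTL3-RIP held 451 to 493 Mtor reads and input 16 to 36, the lowest with an exact Poisson 95% interval of 9.15 to 25.98.

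Cflar was measured at 6.14, 6.20 and 6.39 RPKM in METTL3-RIP and at 0.664, 0.745 and 0.547 RPKM in input. It had the highest level of the 5 in every library of both groups and the most even METTL3-RIP values, with a coefficient of variation of 2.11%. The means were 6.24 ± 0.132 and 0.652 ± 0.0995 RPKM (SD, n = 3), a difference of 2.13 on the log2(RPKM + 1) scale (SE 0.09, limma adjusted p = 1.6e-07). It also had the most reads, 731 to 956 in METTL3-RIP and 102 to 151 in input. Its level is less certain than its read numbers are large, since 21.8% of the 31-base words in its exons occur elsewhere in the genome, against 0% to 1.43% in the other 4 genes.

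**Figure D1:**
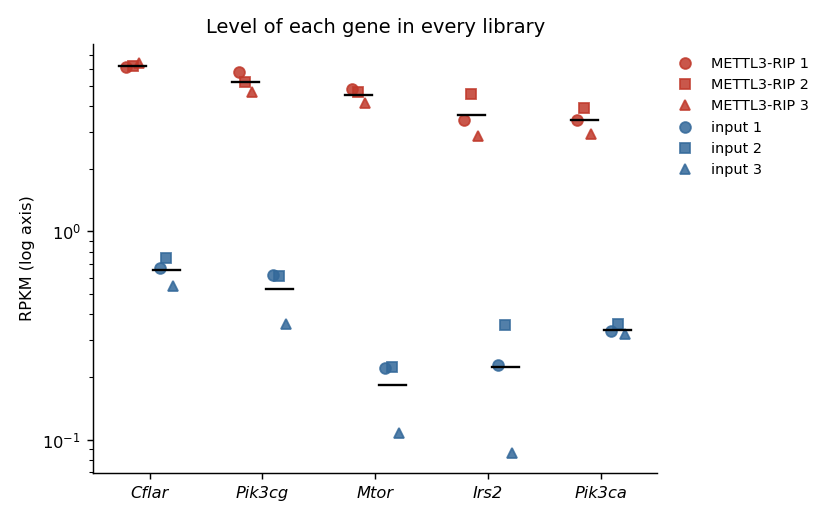
Level of each transcript in RPKM (log axis) in every METTL3-RIP and input library; points are libraries, shaped by replicate number, and black bars are means of 3 libraries. The 2 groups did not overlap for any of the 5 genes, and input replicate 3 was the lowest input value for all of them, down to 0.0860 RPKM for Irs2.

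The order of levels in METTL3-RIP was Cflar, Pik3cg and Mtor in all 3 libraries, followed by Irs2 and Pik3ca, which changed places in replicate 3. Cflar was above Pik3cg without overlap, by 1.02 RPKM on the means. The ranges of Pik3cg and Mtor, of Mtor and Irs2, and of Irs2 and Pik3ca overlapped, although Pik3cg exceeded Mtor within each of the 3 libraries. In input, Cflar led Pik3cg and Pik3cg led Pik3ca in every library, while Irs2 was above Mtor in replicates 1 and 2 and below it in replicate 3. Mtor thus stood at or next to the bottom of the input order and in the middle of the METTL3-RIP order. Of neighbouring transcripts in the input order, Pik3cg and Pik3ca alone did not overlap.

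Input replicate 3 touched the ratios of several transcripts. It was the lowest input library for 5 of 5, as it was for 54.0% of the 1997 listed genes that were above 0 in all 3 inputs. Relative to the mean of the other inputs, it stood at 0.294 for Irs2, 0.485 for Mtor, 0.588 for Pik3cg, 0.777 for Cflar and 0.932 for Pik3ca, against a table median of 0.802. Without it, the ratio of means was 20.4 for Mtor, 12.4 for Irs2, 9.92 for Pik3ca, 8.86 for Cflar and 8.52 for Pik3cg. The order of Mtor and Irs2 above the other 3 was the same with and without that library.

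Within replicate numbers, the METTL3-RIP level of Mtor was 21.9, 20.8 and 38.4 times its input level in replicates 1, 2 and 3. The corresponding ratios of Irs2 were 15.02, 12.8 and 33.3, so replicate 3 gave the largest ratio of both. Pik3ca had ratios of 10.3, 11.0 and 9.07, with replicate 3 the smallest. The ratios were 9.41, 8.52 and 12.9 for Pik3cg and 9.25, 8.32 and 11.7 for Cflar. Mtor was therefore the transcript with the highest ratio in every replicate, Irs2 came next in every replicate, and the other 3 overlapped one another.

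**Figure D2:**
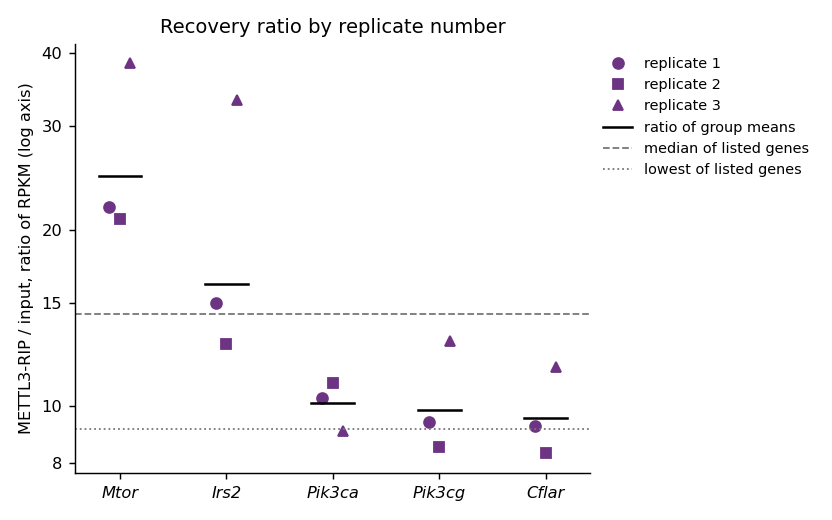
Ratio of METTL3-RIP to input RPKM (log axis) for each transcript within replicate numbers 1 to 3 (points), with the ratio of group means (black bars), the median ratio of 2487 listed genes (dashed line, 14.4) and their lowest (dotted line, 9.14). Mtor lay above the dashed line in all 3 replicates, and Pik3ca, Pik3cg and Cflar lay below it in all 3.

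The 10 pairs of transcripts were compared on the log2 ratios of the 3 replicates, with the SE taken over differences within replicate numbers, since the ratios of a replicate share their libraries. The difference was 1.43 between Mtor and Cflar (SE 0.15), 1.36 between Mtor and Pik3cg (SE 0.11) and 1.36 between Mtor and Pik3ca (SE 0.36). Irs2 exceeded Cflar by 0.94 (SE 0.29), Pik3ca by 0.88 (SE 0.51) and Pik3cg by 0.87 (SE 0.25), and Mtor exceeded Irs2 by 0.48 (SE 0.15). Each of these 7 differences had the same sign in 3 of 3 replicates. Pik3cg exceeded Cflar by 0.07 (SE 0.04), also in 3 of 3, whereas Pik3ca differed from Cflar by 0.06 (SE 0.23) and from Pik3cg by 0.01 (SE 0.26), with signs that varied. The smallest p that a two-sided exact sign-flip permutation test of 3 differences allows is 0.25, reached by the 8 pairs with 1 sign and adjusted to 0.313 over the 10 pairs. With the values taken as unpaired, the ranges of Irs2 and Pik3cg and those of Mtor and Irs2 overlapped (exact permutation p = 0.2 and 0.4), and the other 5 pairs that involve Mtor or Irs2 did not overlap (p = 0.1, the smallest that test allows, adjusted 0.2). No pair could pass 0.05 in either test.

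Set against the table, 82.7% of the 2487 listed genes with input reads had a smaller ratio than Mtor and 58.8% a smaller ratio than Irs2. The share was 12.7% for Pik3ca, 8.97% for Pik3cg and 4.54% for Cflar. The lowest ratio of these 2487 genes was 9.14, so these last 3 lay near the lower edge of the listed genes. That is the edge of a table limited to genes with an authors' log2 fold change of at least 1. The authors' fold changes were not compared with these ratios, which are relative to library totals. On the log2(RPKM + 1) scale, which compresses low levels, the 5 transcripts ranked between 878 and 1332 of the 2652 genes with a median of 2.03. Their median lay below the table's with a pseudocount of 0.1 (3.10 against 3.23), with voom (3.31 against 3.89) and among genes of at least 1 RPKM (2.03 against 2.27). On the log2(RPKM + 1) scale the order of the 5 became Mtor, Cflar, Pik3cg, Irs2 and Pik3ca. Taking the ratio of mean RPKM without a pseudocount therefore moved Cflar from the second place to the last.

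**Figure D3:**
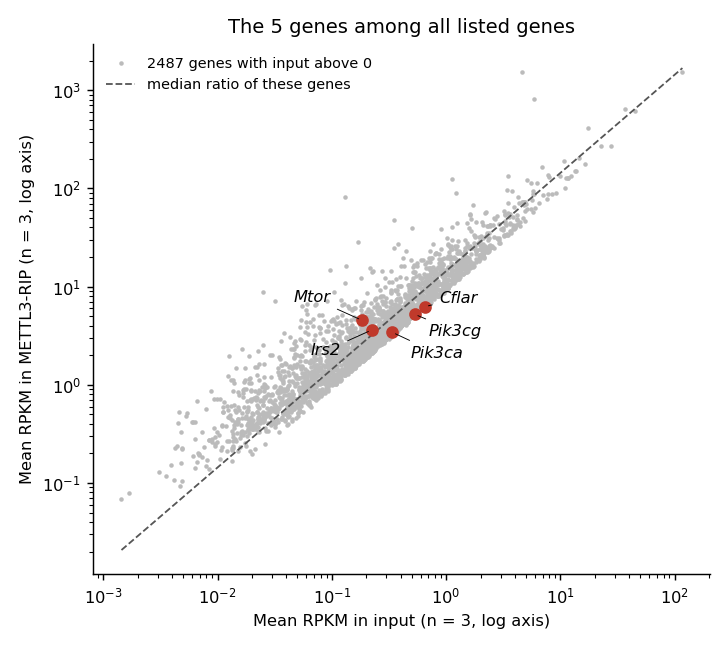
Mean RPKM in METTL3-RIP against mean RPKM in input (both log axes, n = 3 libraries each) for the 2487 listed genes above 0 in input (grey), with the 5 genes in red and the median ratio of 14.4 as a dashed line. Mtor lay above the line, Irs2 close to it, and Pik3ca, Pik3cg and Cflar below it along the lower edge of the grey points.

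The other listed genes of the pathway had the same direction, which the table's construction fixes. Of 86 genes on a PI3K to mTOR list, 23 were listed (26.7%), against 8.69% of all annotated protein-coding genes, expressed in NK cells or not. Of these 23, 23 were higher in METTL3-RIP and 0 lower, against 99.9% and 0% of the table. With each library centred on its median, 9 were higher and 7 lower, against 39.4% and 42.2% of the table. With quantile normalization it was 0 and 0, against 6.41% and 5.73%. The median difference of the 23 on the log2(RPKM + 1) scale was 1.72, as for the whole table, and 11 of 23 lay above the table's median. Listed genes were long. The median exon length was 8426 nt for the 23 and 4967 nt for the list's other genes, and 6851 against 3265 nt over all protein-coding genes, and the part of length in being listed was not tested.

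Among the PI3K subunits, Pik3cd was far above Pik3ca and Pik3cg. It encodes p110δ, the catalytic subunit typical of leukocytes, and had 42.3 ± 4.79 RPKM in METTL3-RIP and 2.40 ± 0.659 RPKM in input (SD, n = 3), a ratio of 17.6. Pik3r5, the p101 regulatory partner of p110γ, had 42.6 and 3.85 RPKM and a ratio of 11.1. Pik3ap1, the adaptor BCAP, had 50.6 and 3.88 RPKM and a ratio of 13.0. The partner Pik3r5 was thus present at a higher level per length than Pik3cg itself in both groups. Inpp5d, the lipid phosphatase SHIP1 that removes the PI3K product, had 17.5 and 1.49 RPKM and a ratio of 11.7. Insr, the insulin receptor that signals through Irs2, was the lowest of the list at 0.387 RPKM in METTL3-RIP, and its ratio of 24.0 rested on 2, 2 and 6 input reads.

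Downstream, the AKT phosphatases Phlpp1 and Phlpp2 had ratios of 19.2 and 11.6, and Foxo3, a transcription factor that AKT keeps out of the nucleus, had a ratio of 17.6. Tsc1 and Tsc2, which together restrain mTOR, had ratios of 14.8 and 14.3, close to the table's median ratio of 14.4. Rptor, the scaffold that directs mTOR to its growth substrates, had 2.39 ± 0.0647 RPKM in METTL3-RIP and 0.0867 ± 0.0206 RPKM in input (SD, n = 3), a ratio of 27.5. Rictor, the scaffold of the other mTOR complex, had 5.33 and 0.387 RPKM and a ratio of 13.8. Ulk1, an autophagy kinase that mTOR inhibits, had a ratio of 24.7 resting on 4 to 16 input reads. Genes of the amino acid sensing branch that feeds mTOR had ratios of 19.4 for Wdr59, 14.5 for Fnip2, 13.5 for Depdc5, 9.93 for Sesn2 and 9.50 for Flcn. Few input reads lay behind some of these, with 8, 2 and 2 for Wdr59, 8, 14 and 6 for Fnip2 and 8, 3 and 6 for Sesn2. Among the pathway genes named here, Rptor, Ulk1 and Mtor had the highest ratios, and of these 3 Mtor had the most input reads in every library.

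**Figure D4:**
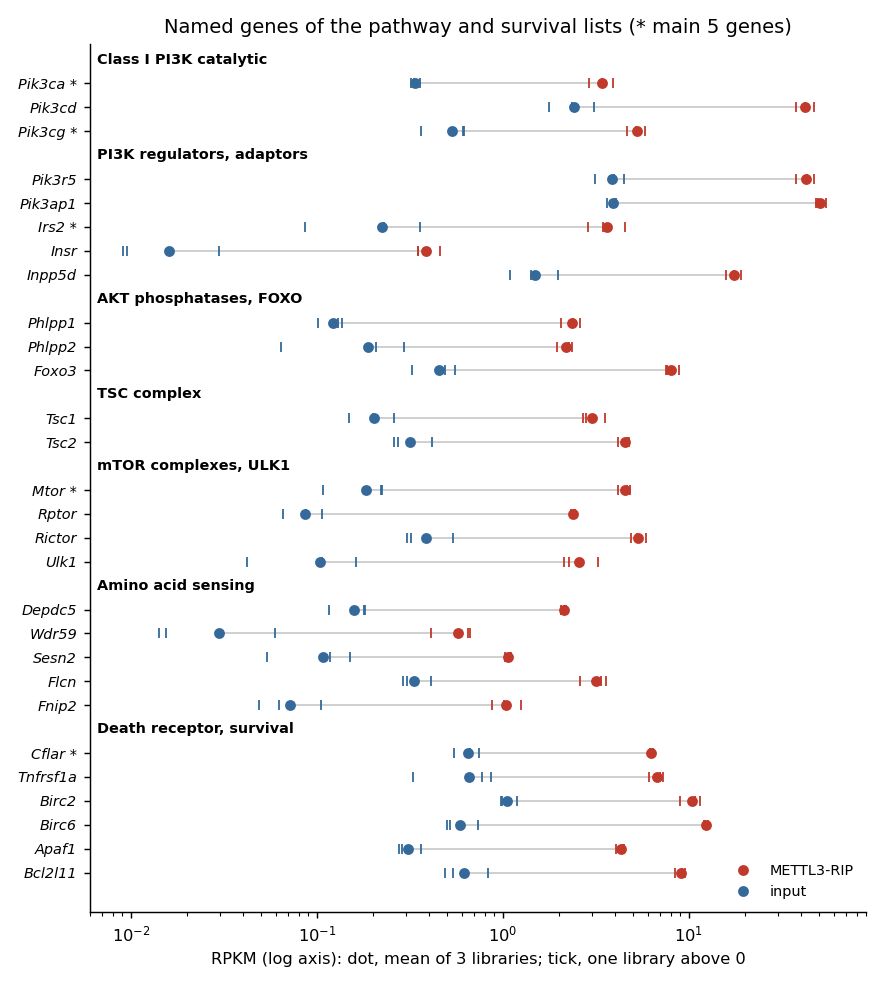
Mean RPKM in METTL3-RIP (red) and input (blue) on a log axis for the genes named from the PI3K to mTOR and the death receptor and survival lists, grouped by role; ticks are single libraries above 0 and asterisks mark the 5 genes described. All METTL3-RIP values lay to the right of the input values of the same gene, and Pik3cd, Pik3r5 and Pik3ap1 had the highest levels, 42.3 to 50.6 RPKM.

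PI3K catalytic subunits and mTOR share a kinase fold with the DNA damage and RNA surveillance kinases. Of 16 genes of that family, 11 were listed (68.8%), against 8.69% of all annotated protein-coding genes. All of these, 11 of 11, were higher, against 99.9% of the table. Median centring called 7 higher and 3 lower, against 39.4% and 42.2% of the table. Quantile normalization called 1 higher and 0 lower, against 6.41% and 5.73%. The median difference of the 11 was 2.17 on the log2(RPKM + 1) scale, against 1.72 for the table. The direction of that gap turned with the scale, since the medians were 3.20 against 3.23 with a pseudocount of 0.1, 2.22 against 2.27 among genes of at least 1 RPKM and 3.79 against 3.89 with voom, and the median ratio was 13.9 against 14.4. The ratio was 31.3 for Trrap, a scaffold of histone acetyltransferases that lacks kinase activity, and 18.5 for Smg1, a kinase of nonsense-mediated decay. It was 13.9 for Prkdc, 11.6 for Atr and 11.1 for Atm, the DNA damage kinases, and 10.04 for Pi4ka, a lipid kinase that supplies the PI3K substrate. Mtor lay between Trrap and Smg1, whereas Pik3ca and Pik3cg lay with Pi4ka at the lower end. The median exon length was 10338 nt for the listed members of the family and 7193 nt for the others.

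Around Cflar, 6 of 41 genes of a death receptor and survival list were listed (14.6%), against 8.69% of all annotated protein-coding genes. The median exon length was 8528.5 nt for the 6 and 3418 nt for the others. Of the 6, 6 were higher, against 99.9% of the table. Median centring called 6 higher and 0 lower, against 39.4% and 42.2% of the table. Quantile normalization called 0 higher and 1 lower, against 6.41% and 5.73%. The median difference of the 6 was 2.36 on the log2(RPKM + 1) scale, against 1.72 for the table. With voom the median was 3.62, below the table's 3.89, and the median ratio was 12.1 against 14.4. Cflar had the lowest ratio of the 6. Tnfrsf1a, a TNF receptor, and Birc2, a ubiquitin ligase at that receptor, were near it with ratios of 10.3 and 9.94. Apaf1, the platform of the apoptosome, had a ratio of 13.9, and Bcl2l11, the pro-death protein BIM, had 14.6. Birc6, a large inhibitor of apoptosis, had the highest ratio, 21.01. The listed genes thus included both inhibitors and promoters of cell death.

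A list of 49 genes of IL-15 receptor signalling that the study assembled includes all 5 transcripts. Of the 49, 12 were listed (24.5%), against 8.69% of all annotated protein-coding genes. The median exon length was 8757 nt for the 12 and 4287 nt for the others. Of these 12, 12 were higher, against 99.9% of the table. The count was 8 higher and 1 lower with median centring, against 39.4% and 42.2% of the table. It was 0 higher and 2 lower with quantile normalization, against 6.41% and 5.73%. The median difference was 2.18 on the log2(RPKM + 1) scale, and with voom it was 3.55, below the table's 3.89. Jak3, the kinase of the common cytokine receptor chain, had 4.87 and 0.512 RPKM and a ratio of 9.51. Ptpn11, the phosphatase SHP-2, had 13.5 and 1.41 RPKM and a ratio of 9.52. These were the lowest ratios of the 12, close to those of Cflar, Pik3cg and Pik3ca, and the other 5 genes had ratios of 11.6 to 15.8. These lists share genes with one another, so their counts are not independent.

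The protein-coding genes whose values over the 6 libraries were nearest to each of the 5 were named by the root mean square difference of log2(RPKM + 1). The nearest were Asap2 (0.0273), Ercc4 and Bahd1 for Pik3ca, Pold1 (0.0812), Ern1 and Jak3 for Pik3cg, and Piezo1 (0.0536), Spg11 and Abl2 for Mtor. For Irs2 they were Zbtb10 (0.0696), Klhl18 and Llgl2, and for Cflar they were Paxbp1 (0.0667), Pkp4 and Nfic. Jak3 was the only one of these 15 on a list described here.

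The representative transcripts of the 5 genes were 5871 to 8917 nt long, against medians of 4737 nt for listed and 2569 nt for all protein-coding genes, and their layouts differed. Mtor was mostly coding sequence, 7650 of 8564 nt, spread over 58 exons of which the longest had 839 nt. Irs2 had 2 exons, the longest of 3989 nt. Pik3ca and Cflar had the longest 3′ untranslated regions, 5655 and 4962 nt, and longest exons of 5926 and 5101 nt. Pik3cg had 3309 nt of coding sequence and 2408 nt of 3′ untranslated region.

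DRACH occurred 23.4 times per kilobase in Pik3ca, 21.9 in Cflar, 21.6 in Mtor, 20.3 in Pik3cg and 16.9 in Irs2. For all protein-coding transcripts the median was 20.4, with quartiles of 17.9 and 22.7. Pik3ca lay above the upper quartile and Irs2 below the lower, with the others between them. The GGACT form, counted on the transcript strand and contained within DRACH, occurred 14 times in Pik3ca, 13 in Mtor, 11 in Irs2, 10 in Pik3cg and 7 in Cflar. In Mtor, 10 of the 13 were in coding sequence, and in Irs2 it was 7 of 11. In Pik3ca 11 of the 14, and in Cflar 6 of the 7, were in the 3′ untranslated region. Of 1620 protein-coding transcripts in the same range of lengths, 99.5% held GGACT, with a median of 7, and 89.3% held it in coding sequence, so holding the motif did not set these transcripts apart. Per kilobase, GGACT was most frequent in Irs2 at 1.74, followed by Pik3cg at 1.70, Pik3ca at 1.57, Mtor at 1.52 and Cflar at 1.07, against a median of 1.02 for all protein-coding transcripts. Irs2 thus had the fewest DRACH and the most GGACT matches per kilobase of the 5, and neither order was that of the METTL3-RIP to input ratios.

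**Figure D5:**
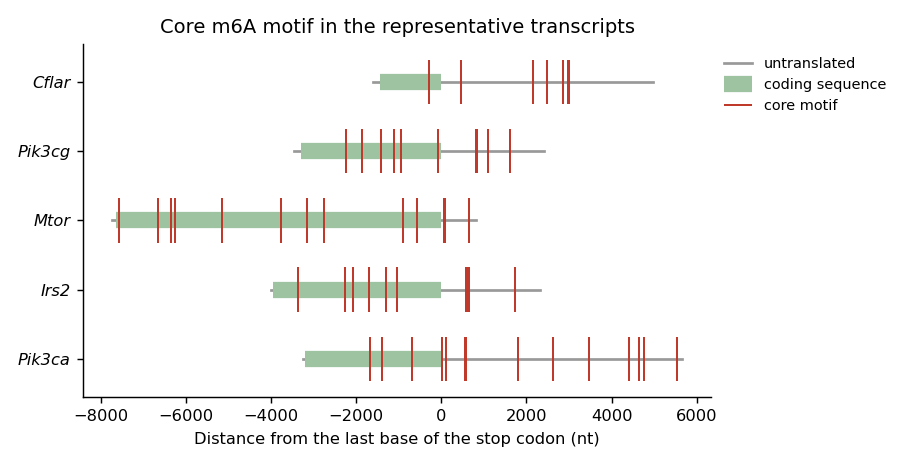
Positions of GGACT (red lines) in the representative transcript of each gene, as distance in nt from the last base of the stop codon; green boxes are coding sequence and grey lines untranslated sequence. Motifs of Mtor lay mostly in its long coding sequence (10 of 13), and those of Pik3ca mostly in its 3′ untranslated region (11 of 14).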

How the data were processed

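The deposited table held 1 value per gene and library, which the authors had computed from the aligned reads as normalized RPKM; the unit was inferred from the values, which were whole multiples of 1 read per GENCODE M21 exon length for 84.2% of the 2551 genes with one annotation entry (2147 genes, in all 6 libraries, within 0.02 of a read). It also held the authors' log2 fold change and p-value for each gene, all at least 1 and under 0.05 respectively, which were used only to learn how the genes had been selected. The submitters' processing notes name Trimmomatic 0.36, STAR 2.5.3a, bedtools 2.25.0, deepTools 2.4.1, HOMER 4.10 and GRCm38; the counting tool and its use of strand are not given in the sources used here.

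Groups came from the sample labels. METTL3-RIP and input were compared with limma 3.58.1 (lmFit and eBayes with a trend, R 4.3.3) on log2(RPKM + 1) over all 2652 genes, without a filter, two-sided, with Benjamini-Hochberg adjustment and a threshold of 0.05. Because log2(RPKM + 1) understates the change of low genes, the ratio of mean RPKM without a pseudocount was given beside it. Pairs of genes were compared with exact permutation tests (scipy 1.17.1), unpaired and, added after seeing the data, within replicate numbers. The text names the 5 genes, the listed genes of the pathway, kinase family and survival lists with input reads in every library (any gene of these lists could be named, and 1 is not reported here), Jak3 and Ptpn11 of the IL-15 list, and for each of the 5 the 3 protein-coding genes nearest in pattern. The 5 genes and all lists were chosen with earlier results of these data known. Sequences and exon structures came from GRCm38 and GENCODE M21, with 1 representative transcript a gene (APPRIS principal, then longest).

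According to the study's methods, an input and a METTL3-RIP part were taken from a lysate, so equal replicate numbers were taken as pairs. The deviations from the group means correlated by -0.02, -0.02 and 0.08 over genes for replicates 1, 2 and 3, so the values themselves showed no pairing. The fit without a replicate block is given in the text. Alternatives were other pseudocounts, a filter on mean RPKM, median centring, quantile normalization, no trend, a replicate block, each library left out, and voom on recovered reads.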

Additional observations from a re-analysis of the deposited data

How the results depend on the processing

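The difference of all 5 genes stayed above 0 with an adjusted p under 0.05 (limma) with pseudocounts of 0.1 and 5, a mean RPKM of at least 1 (1671 of 1671 genes called, against 2650 of 2652 without that filter), no trend, voom on recovered reads, a replicate block, and each library left out (2629 to 2644 genes called). The replicate block, which uses the pairing of the numbers, called 2643 genes and changed no call of the 5 genes or the lists. Values moved with the pseudocount, which set the table's median at 3.23 with 0.1 and 0.62 with 5, and voom called 2651 genes with a median of 3.89. Irs2 was then second to Mtor with 0.1 (3.59 and 4.06) and with voom (4.13 and 4.66), and Cflar was first with 5 (0.99).

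Scalings that remove the shift shared by the listed genes changed calls, by their construction, since nearly all of these genes are higher in METTL3-RIP. These scalings were applied on the log2(RPKM + 1) scale, which compresses low levels. Median centring called 1044 genes higher and 1119 lower in METTL3-RIP, called 3 of the 5 higher (Mtor 0.46, Cflar 0.37, Pik3cg 0.27), called 9 genes of the PI3K to mTOR list higher and 7 lower, and called 7 of the kinase family higher and 3 lower. It called 6 higher and 0 lower on the survival list, and 8 higher and 1 lower on the IL-15 list. Values below 0 were then -0.04 for Pik3ca, -1.31 for Insr, -0.19 for Phlpp1, -0.33 for Phlpp2, -0.03 for Tsc1, -0.12 for Rptor, -0.08 for Ulk1, -0.86 for Sesn2, -0.33 for Depdc5, -1.15 for Wdr59, -0.12 for Flcn, -0.83 for Fnip2, -0.74 for Atr, -0.22 for Prkdc, -0.04 for Asap2 and -0.01 for Ercc4. With quantile normalization, 170 genes were higher and 152 lower. Of the 5 genes, 0 were higher and 1 lower (Cflar), with 0 and 0 for the PI3K to mTOR list, 1 higher for the kinase family, 0 and 1 for the survival list, and 0 and 2 for the IL-15 list. Mtor was then at 0.32 and Irs2 at 0.07, and values below 0 were -0.30 for Pik3ca, -0.31 for Pik3cg, -0.37 for Cflar, -0.32 for Pik3r5, -0.10 for Pik3ap1, -0.20 for Insr, -0.18 for Inpp5d, -0.17 for Phlpp2, -0.05 for Tsc1, -0.02 for Tsc2, -0.05 for Rictor, -0.29 for Sesn2, -0.13 for Depdc5, -0.16 for Wdr59, -0.34 for Flcn, -0.16 for Fnip2, -0.24 for Atm, -0.22 for Atr, -0.10 for Prkdc, -0.34 for Pi4ka, -0.28 for Tnfrsf1a, -0.40 for Birc2, -0.06 for Apaf1, -0.31 for Jak3, -0.41 for Ptpn11, -0.33 for Asap2, -0.25 for Ercc4, -0.14 for Bahd1, -0.33 for Pold1, -0.24 for Ern1, -0.02 for Zbtb10, -0.04 for Klhl18, -0.12 for Llgl2, -0.24 for Paxbp1, -0.39 for Pkp4 and -0.26 for Nfic. Leaving out each library in turn, chosen after seeing the data for the ratios, gave ratios of means of 20.4 to 27.6 for Mtor, 12.4 to 23.0 for Irs2, 9.41 to 10.9 for Pik3ca, 8.52 to 10.8 for Pik3cg and 8.86 to 10.3 for Cflar.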
